A study of Mus musculus with 32 samples.

Results

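The Iroquois homeobox genes Irx1, Irx2, Irx3 and Irx5 were followed in the developing mouse brain, as 4 of the 48576 genes listed in each of 32 RNA libraries. They were matched by Ensembl identifier, and all 4 were found. Iroquois genes encode transcription factors with a homeodomain of the TALE type, which carries an insertion of a few residues between helices. In the mouse they lie in a pair of clusters, with Irx1, Irx2 and Irx4 in the first and Irx3, Irx5 and Irx6 in the second. In the early neural plate Iroquois genes are known for marking the territory behind the prospective zona limitans, where Irx3 and the anterior gene Six3 repress each other. In the ventral neural tube Irx3 is also known for setting the border of motor neuron progenitors against Olig2.

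The embryos were of the B6C3F1 strain at E9.5, and forebrain (Fb) and midbrain (Mb) tissue was sequenced separately. In each tissue there were 6 wild-type (WT) libraries, 4 of TKO_Ex, 3 of DKO_Ex and 3 of DKO_CD. TKO_Ex embryos lacked the type II cadherins Cdh6, Cdh8 and Cdh11 and had exencephaly, an open cranial neural tube. DKO_Ex embryos lacked Cdh8 and Cdh11 and had exencephaly, whereas DKO_CD embryos were double mutants with a closed tube and a cranial defect. For DKO_CD the sample labels name Cdh6 and Cdh8 as the missing genes, while the study's methods name Cdh8 and Cdh11. The mutant alleles are germline deletions within the start codon exons, carried by every cell of the embryo, and mutants came from matings of triple heterozygotes while WT embryos came from WT matings. All mutant alleles go back to 1 triple heterozygous mouse. The column headings of the 12 double mutant files name the opposite group to the record that lists them, and the headings were followed here.

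Both clusters could be placed on GRCm38. Irx1 lies on chromosome 13 from 71957921 to 71963723 on the minus strand (ENSMUSG00000060969) and Irx2 on chromosome 13 from 72628820 to 72634198 on the plus strand (ENSMUSG00000001504). Irx3 lies on chromosome 8 from 91798525 to 91802067 on the minus strand (ENSMUSG00000031734) and Irx5 on chromosome 8 from 92357625 to 92376286 on the plus strand (ENSMUSG00000031737). Within a cluster the gaps were 0.665 Mb between Irx1 and Irx2 and 0.556 Mb between Irx3 and Irx5. On the same chromosome as Irx3 and Irx5, Cdh8 began 6.65 Mb beyond Irx5 and Cdh11 10.3 Mb beyond it. In the mutants, strain alleles linked to the Cdh8 and Cdh11 deletions and the deletions themselves cannot be told apart for Irx3 and Irx5.

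Because the members share their homeobox, its most alike 60 coding bases are shown, to let a reader see how far reads of one member could be taken for another. The stretch lies in the coding part of exon 2 of each gene, is given 5′ to 3′ on the gene's own strand, and has in capitals the positions that were not the same in all 4 genes. It spans chr13:71960052-71960111 in Irx1, chr13:72630733-72630792 in Irx2, chr8:91800556-91800615 in Irx3 and chr8:92359696-92359755 in Irx5.
Irx1: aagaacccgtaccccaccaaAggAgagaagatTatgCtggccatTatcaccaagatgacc
Irx2: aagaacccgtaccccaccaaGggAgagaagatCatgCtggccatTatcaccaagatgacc
Irx3: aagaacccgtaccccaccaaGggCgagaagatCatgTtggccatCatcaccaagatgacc
Irx5: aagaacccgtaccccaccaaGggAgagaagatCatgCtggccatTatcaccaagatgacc
Of the 60 positions, 55 were identical in all 4 genes, and Irx2 and Irx5 were identical at all 60. The longest run of bases shared by a pair of members was 65 bases, between Irx2 and Irx5, followed by 50 bases between Irx3 and Irx5. For the other pairs it was 26 to 32 bases. All of these are shorter than the 101 cycles of a read. Over Irx3 the stretch also lies within the span of Irx3os, an antisense RNA gene, and while reads were mapped with a first-strand library setting, the strand setting of the FPKM step is not given in the sources used here.

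Values are FPKM, fragment counts scaled to exon length and library size, so that genes can be set side by side per length. The depth, estimated from the step between low values, lay between 1.96 and 3.24 M fragments, with 2.615 M as the median over libraries. At this depth Irx1 rested on about 8 to 178 fragments in the Fb libraries and 188 to 413 in the Mb libraries, and Irx3 on about 69 to 251 and 319 to 631. For Irx2 it was about 5 to 96 and 184 to 396, and for Irx5 about 18 to 135 and 146 to 317. The Mb values thus carry less counting error than the Fb values.

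The tissue labels were checked against regional markers. In the Fb, the summed level of 6 forebrain markers was 85.3 to 196 FPKM, with Lhx2 as the most abundant in 14 of 16 libraries and none of the 6 at 0. In the Mb the same sum was 0.368 to 10.8 FPKM. The summed level of 5 midbrain markers (En1, En2, Pax2, Pax5 and Pax8) was 1.77 to 12.4 FPKM in the Fb and 16.4 to 181 FPKM in the Mb. The lowest of these Mb sums was that of WT replicate 5. There En1, which marks midbrain and isthmus, was at 3.57 FPKM against 32.0 to 59.0 FPKM in the other 5 WT libraries. The same library had the highest forebrain marker sum of the Mb, 10.8 FPKM with Lhx2 at 9.05 FPKM, and the highest Mb Pax6, at 52.7 FPKM. Irx1, Irx2, Irx3 and Irx5 were at 60.6, 40.2, 75.6 and 34.1 FPKM in that library, within or above the range of the other 5.

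The library labelled TKO_Ex replicate 3 also stood apart, in 1 of the 3 targeted genes. The targeted gene Cdh6 measured 0.388, 0.353, 3.10 and 0.345 FPKM in TKO_Ex Mb replicates 1 to 4, and 1.84, 0.766, 3.74 and 0.572 FPKM in the Fb. The WT libraries held 1.04 to 3.55 FPKM in the Mb and 2.04 to 4.0 FPKM in the Fb, so that replicate 3 lay within the WT range in both tissues. A deletion within a start codon exon need not lower a gene's FPKM, so this value alone does not settle a genotype. The other targeted genes did not set replicate 3 apart. In the Mb its Cdh11 was at 16.2 FPKM, among 14.5 to 16.6 FPKM in TKO_Ex and below the 17.9 to 28.7 FPKM of WT, and its Cdh8 was at 1.59 FPKM, among 0.851 to 2.32 FPKM in TKO_Ex and within the 1.14 to 10.1 FPKM of WT. For DKO_CD, labels and methods differ on Cdh6 and Cdh11. Its Cdh6 was at 1.76, 2.11 and 1.29 FPKM in the Mb and 3.43, 1.72 and 2.78 FPKM in the Fb. In DKO_Ex Cdh6 was at 1.86 to 3.12 and 3.62 to 4.34 FPKM. Every Mb library of both double mutant groups was inside the Cdh6 range of the WT Mb. In the Fb, DKO_CD replicate 2 was below the WT range and DKO_Ex replicate 3 above it. Cdh11 was at 22.4, 27.2 and 16.6 FPKM in the DKO_CD Mb and 25.3, 12.7 and 22.6 FPKM in its Fb. In DKO_Ex Cdh11 was at 17.6 to 18.7 and 17.1 to 18.7 FPKM, against 17.9 to 28.7 and 19.5 to 25.3 FPKM in WT. These values alone do not settle which genes DKO_CD lacks.

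In the Fb, TKO_Ex replicate 4 and DKO_CD replicate 2 differed from the rest. Their forebrain marker sums were 92.6 and 85.3 FPKM, the lowest of the 16 Fb libraries, and the next lowest was 118 FPKM. Their sums over 6 surface ectoderm markers (Krt8, Krt18, Epcam, Trp63, Grhl3 and Tfap2c) were 212 and 191 FPKM against 55.5 to 156 FPKM elsewhere. Sums over 5 endothelial markers were 21.6 and 19.8 FPKM, the lowest values, and their midbrain marker sums of 1.77 and 2.97 FPKM were the lowest as well.

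In WT, all 4 members were higher in the Mb than in the Fb, by 4.26-fold to 9.56-fold in mean FPKM, and no Fb library reached a Mb library. Irx3, the most abundant member, ranged from 56.0 FPKM through a median of 72.4 to 83.8 FPKM in the 6 Mb libraries and from 13.5 through 16.1 to 19.4 FPKM in the 6 Fb libraries. Its tissues were far apart, and its Fb level was already above that of the other members. The mean level was 70.1 ± 10.3 FPKM in the Mb and 16.4 ± 2.27 FPKM in the Fb (SD, n = 6 each), and the difference was 2.02 on the log2(FPKM + 1) scale (SE 0.11, limma, adjusted p = 1.13e-07).

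Irx1, which is expressed in the neural tube, lung and limb, had the steepest step of the 4. It ranged from 37.0 through 50.0 to 60.6 FPKM in the WT Mb and from 3.05 through 4.96 to 7.64 FPKM in the WT Fb. The lowest Mb library was thus several times above the highest Fb library. The means were 49.3 ± 8.77 and 5.15 ± 1.86 FPKM (SD, n = 6 each), a difference of 3.07 in log2(FPKM + 1) (SE 0.19, limma, adjusted p = 3.09e-07).

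Irx2, known in the chick for a role with Fgf8 in cerebellum formation, followed its cluster neighbour. It ranged from 22.4 through 38.0 to 44.3 FPKM in the WT Mb and from 3.30 through 4.19 to 9.28 FPKM in the WT Fb. Relative to their level the Fb libraries spread more widely than those of Irx3, but they stayed below every Mb library. The difference was 2.61 in log2(FPKM + 1) (SE 0.23, limma, adjusted p = 5.69e-06).

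Irx5, known for retinal bipolar cells and for the repolarization gradient of the heart, was the least abundant member in the Mb. It ranged from 22.9 through 29.2 to 36.2 FPKM in the WT Mb and from 3.75 through 5.57 to 8.16 FPKM in the WT Fb, again without overlap. The difference was 2.16 in log2(FPKM + 1) (SE 0.17, limma, adjusted p = 1.89e-06).

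All 4 members thus passed the threshold in WT, an adjusted p under 0.05, in a comparison in which 8.26% of 13344 genes passed. By size of difference Irx1 was the gene ranked 12, Irx2 24, Irx5 42 and Irx3 51 of those 13344 genes. All 4 had every Mb library above every Fb library, which held for 3.36% of the genes tested. The two-sided exact permutation test gave p = 0.00216 for each member, the smallest that 6 libraries against 6 can give. Without WT Mb replicate 5 the differences were 3.0, 2.57, 2.0 and 2.11 for Irx1, Irx2, Irx3 and Irx5, with adjusted p of at most 2.74e-05 (limma). In bulk tissue, more cells that express a gene and more RNA per cell cannot be told apart.

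Markers of other cell types differed between the tissues in WT too. The sum of 5 head mesenchyme markers, Twist1 being the most abundant and none at 0, was 53.2 to 96.0 FPKM in the WT Mb and 122 to 162 FPKM in the WT Fb, and 4 of the 5 were called lower in the Mb. The sum of the 6 surface ectoderm markers, Krt8 or Krt18 being the most abundant, was 22.7 to 36.4 FPKM in the WT Mb, where Grhl3 was at 0 in 2 libraries, and 55.5 to 89.2 FPKM in the WT Fb, and 3 of the 4 tested were called lower. In TKO_Ex the head mesenchyme sums were 62.3 to 83.0 FPKM in the Mb and 89.2 to 131 FPKM in the Fb. The surface ectoderm sums were 23.3 to 33.2 and 82.1 to 212 FPKM. Head mesenchyme sums in DKO_Ex were 68.9 to 94.5 and 96.4 to 123 FPKM, and surface ectoderm sums 32.7 to 35.6 and 73.2 to 156 FPKM. In DKO_CD the head mesenchyme sums overlapped, at 84.3 to 142 and 65.3 to 159 FPKM, and no gene of either list was called. Its surface ectoderm sums were 20 to 68.8 and 72.8 to 191 FPKM. The part of these cell types in the step of the members was not tested.

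**Figure D1:**
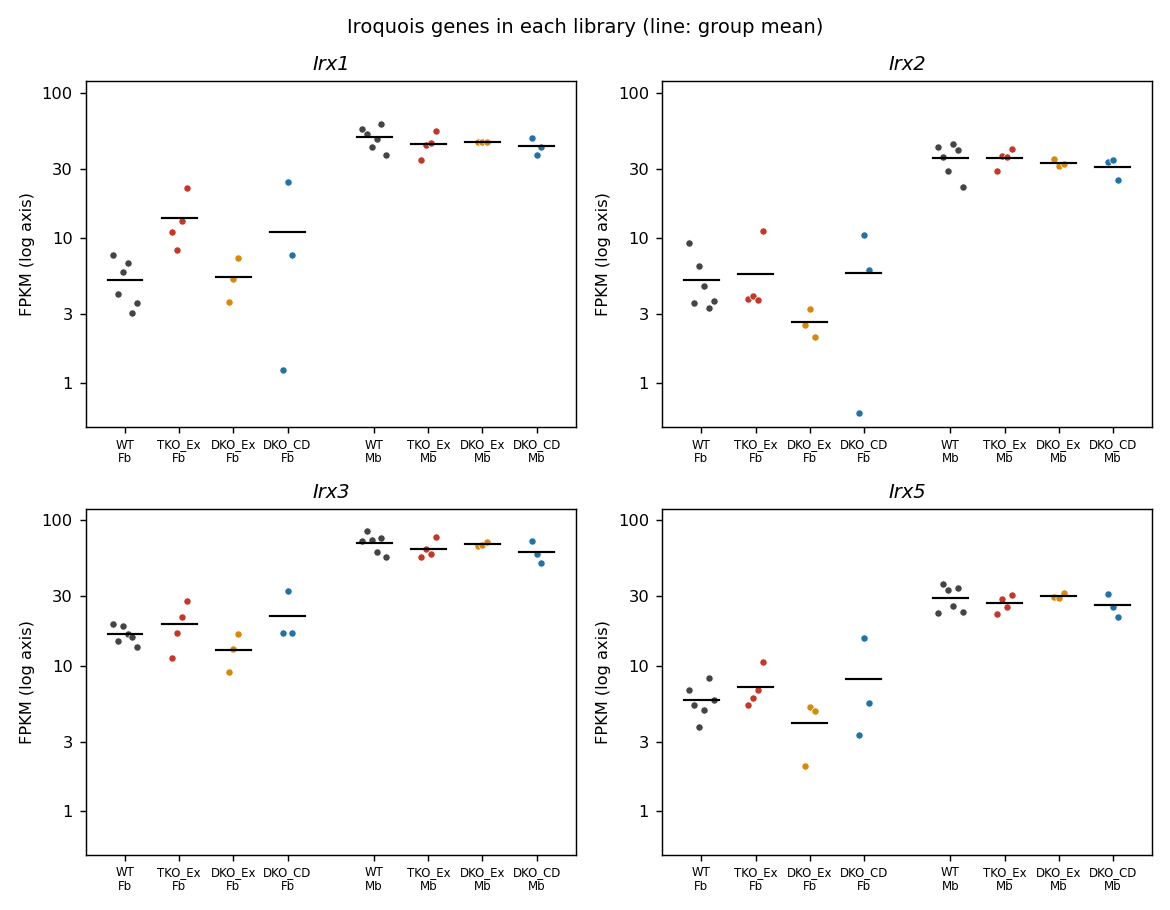
FPKM of Irx1, Irx2, Irx3 and Irx5 (log axis) in each of the 32 libraries, by group and tissue, with a line at the group mean. In all 4 panels every Mb library lies above every Fb library of its own group, and for Irx1, Irx2 and Irx5 the widest spread is that of the DKO_CD Fb points.

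The order of the members by level per length was the same in the Mb of all 4 groups, with Irx3 highest, then Irx1, Irx2 and Irx5. In the WT Mb the means were 70.1, 49.3, 35.6 and 29.1 FPKM, and each neighbouring pair in this order overlapped between libraries. In the WT Fb Irx3, at 13.5 to 19.4 FPKM, lay above the highest value of any other member, which was 9.28 FPKM. Irx1, Irx2 and Irx5 overlapped there, with means of 5.15, 5.15 and 5.79 FPKM.

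In TKO_Ex the step from Fb to Mb was present for all 4 members. Irx1 was at 34.4, 43.3, 45.3 and 54.2 FPKM in Mb replicates 1 to 4 and at 11, 8.26, 13.1 and 22.1 FPKM in the Fb. Irx2 was at 28.9, 36.4, 36.2 and 40.9 FPKM in the Mb and at 3.82, 3.97, 3.75 and 11.1 FPKM in the Fb. The tissues did not overlap for either gene, and replicate 4 had the highest Fb level of both.

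Irx3 was at 55.6, 63.3, 59.0 and 77.0 FPKM in the TKO_Ex Mb and at 11.2, 16.8, 21.6 and 27.6 FPKM in the Fb. Irx5 was at 22.5, 28.7, 25.3 and 30.6 FPKM in the Mb and at 5.31, 5.97, 6.84 and 10.5 FPKM in the Fb. Again the tissues were separate and Fb replicate 4 was the highest. The differences in log2(FPKM + 1) were 1.70 for Irx1 (SE 0.26, limma, adjusted p = 0.00887), 2.58 for Irx2 (adjusted p = 0.00197), 1.73 for Irx3 (adjusted p = 0.00528) and 1.80 for Irx5 (adjusted p = 0.00149).

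All 4 members thus passed in TKO_Ex, where 2.89% of 13477 genes passed, and all 4 had every Mb library above every Fb library, as did 4.67% of the genes. The exact permutation p was 0.0286 for each, the smallest for 4 against 4. Without both libraries labelled replicate 3, Irx2, Irx3 and Irx5 still passed, with differences of 2.45, 1.84 and 1.81, while Irx1 did not, with a difference of 1.69 and an adjusted p of 0.0918 (limma). Leaving out those libraries took the number of genes that passed from 389 to 163.

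DKO_Ex showed the tightest Mb values. Irx1 was at 45.6, 46.0 and 45.9 FPKM in Mb replicates 1 to 3 and at 3.59, 5.23 and 7.24 FPKM in the Fb. Irx2 was at 34.7, 31.2 and 32.0 FPKM in the Mb and at 2.52, 3.26 and 2.08 FPKM in the Fb. For both genes the tissues were clearly separate.

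Irx3 was at 66.7, 67.5 and 70.7 FPKM in the DKO_Ex Mb and at 8.98, 12.9 and 16.4 FPKM in the Fb. Irx5 was at 29.4, 29.2 and 31.4 FPKM in the Mb and at 2.04, 5.21 and 4.90 FPKM in the Fb. Here too no Fb library reached the Mb range. The log2(FPKM + 1) differences were 2.92 for Irx1 (SE 0.21, limma, adjusted p = 0.00133), 3.23 for Irx2 (adjusted p = 0.000375), 2.37 for Irx3 (adjusted p = 0.00192) and 2.69 for Irx5 (adjusted p = 0.00391). All 4 passed where 2.58% of 13314 genes did, and all 4 were separate by tissue, as were 12.6% of genes in that direction.

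In DKO_CD the Mb was again higher in every library, but none of the 4 members passed the threshold. Irx1 was at 48.9, 37.4 and 42.1 FPKM in the Mb and at 1.23, 24.2 and 7.57 FPKM in Fb replicates 1 to 3. Irx2 was at 33.5, 34.2 and 25.2 FPKM in the Mb and at 0.625, 10.5 and 6.01 FPKM in the Fb. The Fb levels of both genes had a larger SD than in the Fb of any other group, 11.9 FPKM for Irx1 and 4.94 FPKM for Irx2, although the latter was close to the 3.64 FPKM of TKO_Ex. Replicate 1 was lowest for both, and replicate 2 highest.

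Irx3 was at 72.2, 58.3 and 50.4 FPKM in the DKO_CD Mb and at 16.8, 32.4 and 16.7 FPKM in the Fb. Irx5 was at 31.1, 25.2 and 21.6 FPKM in the Mb and at 3.35, 15.4 and 5.55 FPKM in the Fb. Replicate 2 was again the highest Fb library. The log2(FPKM + 1) differences were 2.47 for Irx1 (95% interval 0.63 to 4.32, limma, adjusted p = 0.333), 2.64 for Irx2 (1.08 to 4.21, adjusted p = 0.21), 1.47 for Irx3 (0.83 to 2.11, adjusted p = 0.106) and 1.78 for Irx5 (0.70 to 2.86, adjusted p = 0.232).

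In DKO_CD 0.507% of 13415 genes passed, and 7.34% had every Mb library above every Fb library. With 3 libraries against 3, in DKO_CD as in DKO_Ex, the exact permutation p was 0.1 for each member, the smallest this design can give, so that test could not pass 0.05. Without DKO_CD Fb replicate 2, Irx3 and Irx5 passed, with differences of 1.77 and 2.32 and adjusted p of 0.0174 and 0.0238 (limma). With the spread shared over all 8 groups in one fit, all 4 passed. If the double mutants are grouped by record instead of heading, the DKO_Ex and DKO_CD values exchange places.

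**Figure D2:**
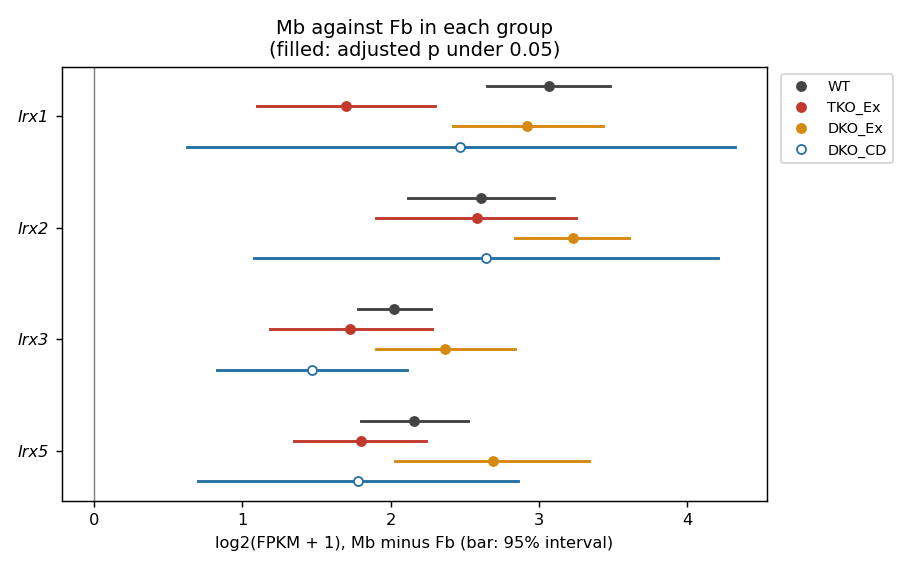
Difference between Mb and Fb in log2(FPKM + 1) for each member (rows) in each group (colours), with 95% intervals from limma and filled points where the adjusted p was under 0.05. All 16 points lie to the right of 0, between 1.47 and 3.23, and the DKO_CD intervals are the widest.

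Whether the step between tissues itself differed from WT was tested as an interaction of tissue and genotype. None of the 4 members passed in TKO_Ex, where 0.0149% of 13423 genes passed, in DKO_Ex, where 0% did and 518 genes had an unadjusted p under 0.05, or in DKO_CD, where 0.00746% did. The interaction of Irx1 in TKO_Ex was -1.37 in log2(FPKM + 1) (95% interval -2.07 to -0.67, limma, unadjusted p = 0.000624, adjusted p = 0.493), and it was -1.31 without WT Mb replicate 5 and the libraries labelled TKO_Ex replicate 3. For Irx2, Irx3 and Irx5 in TKO_Ex the interaction was -0.04 (-0.85 to 0.78), -0.29 (-0.82 to 0.23) and -0.36 (-0.92 to 0.20), and without those libraries -0.13, -0.16 and -0.29. In DKO_Ex the 4 interactions lay between -0.14 and 0.62, and in DKO_CD between -0.59 and 0.03. The DKO_CD intervals were the widest, from -2.0 to 0.82 for Irx1 and from -1.26 to 1.32 for Irx2, so that a sizeable difference in either direction was not detectable there.

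The mutants were next compared with WT within each tissue. Loss of the cadherins and other differences between the mutant and WT matings cannot be told apart in this comparison. In the Mb the differences were small. They were -0.15, 0.03, -0.13 and -0.10 in log2(FPKM + 1) for Irx1, Irx2, Irx3 and Irx5 in TKO_Ex, and the widest of these 4 95% intervals was -0.38 to 0.43. In DKO_Ex they were -0.08, -0.09, -0.02 and 0.06, and in DKO_CD -0.19, -0.17, -0.22 and -0.15. None of the 12 passed (limma), in comparisons in which 0.0898%, 0.0903% and 0.0375% of genes passed. All 12 intervals covered 0, and their outermost bounds were -0.64 and 0.43. The mutant and WT ranges overlapped for each member in each group. Without WT Mb replicate 5 and the library labelled TKO_Ex replicate 3, the TKO_Ex differences were -0.10, 0.06, -0.08 and -0.03.

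In the Fb none of the 12 differences passed in limma either, where 0.0603% of genes passed in TKO_Ex, 0.0759% in DKO_Ex and 0.0378% in DKO_CD. Irx1 was highest relative to WT in TKO_Ex, with a mean of 13.6 ± 5.99 FPKM (SD, n = 4) against 5.15 ± 1.86 FPKM (SD, n = 6). The TKO_Ex libraries ran from 8.26 to 22.1 FPKM and the WT libraries reached 7.64 FPKM at most, so that all 4 TKO_Ex values were higher than all WT values. Surface ectoderm marker sums were 82.1, 83.6, 154 and 212 FPKM in these 4 libraries, with Krt18 the most abundant in each, and 55.5 to 89.2 FPKM in the WT Fb, and their part in the Irx1 level was not tested. The difference was 1.22 in log2(FPKM + 1) (SE 0.28, limma, unadjusted p = 0.00119, adjusted p = 0.214), and the exact permutation p was 0.00476, the smallest for 4 against 6. It was 1.21 without the library labelled replicate 3 and 0.97 without replicate 4 (limma, adjusted p = 0.348 and 0.365). Of all genes tested, 1.42% had every TKO_Ex Fb library above every WT Fb library, and Irx1 was the only member that did.

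The neighbour Irx2 did not share this pattern, since 3 of its 4 TKO_Ex Fb libraries, at 3.75 to 3.97 FPKM, lay within the WT range of 3.30 to 9.28 FPKM. Its difference was 0.06 (95% interval -0.65 to 0.77). Irx3 and Irx5 differed by 0.16 (-0.29 to 0.61) and 0.25 (-0.21 to 0.72) in log2(FPKM + 1). Without the library labelled replicate 3 the differences of Irx2, Irx3 and Irx5 were 0.18, 0.09 and 0.26. For all 4 members the highest TKO_Ex Fb library was replicate 4, the library with a low forebrain and a high surface ectoderm marker sum.

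In the DKO_Ex Fb, Irx2 was at 2.62 ± 0.599 FPKM (SD, n = 3) and all 3 libraries, at 2.08 to 3.26 FPKM, lay below the lowest WT library at 3.30 FPKM. The difference was -0.70 in log2(FPKM + 1) (95% interval -1.33 to -0.08, limma, unadjusted p = 0.0315, adjusted p = 0.649). Such a separation downwards was present in 2.25% of the genes tested, and among the members for Irx2 alone. Head mesenchyme sums in these DKO_Ex libraries were 96.4, 123 and 116 FPKM, against 122 to 162 FPKM in the WT Fb. Their surface ectoderm sums were 97.6, 156 and 73.2 FPKM, against 55.5 to 89.2 FPKM. The part of these cell types in the Irx2 level was not tested. Irx3 and Irx5 differed by -0.37 and -0.47, and Irx1 by 0.06. In the DKO_CD Fb the differences were 0.40, -0.20, 0.34 and 0.22 for Irx1, Irx2, Irx3 and Irx5, with intervals as wide as -0.94 to 1.75 for Irx1.

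**Figure D3:**
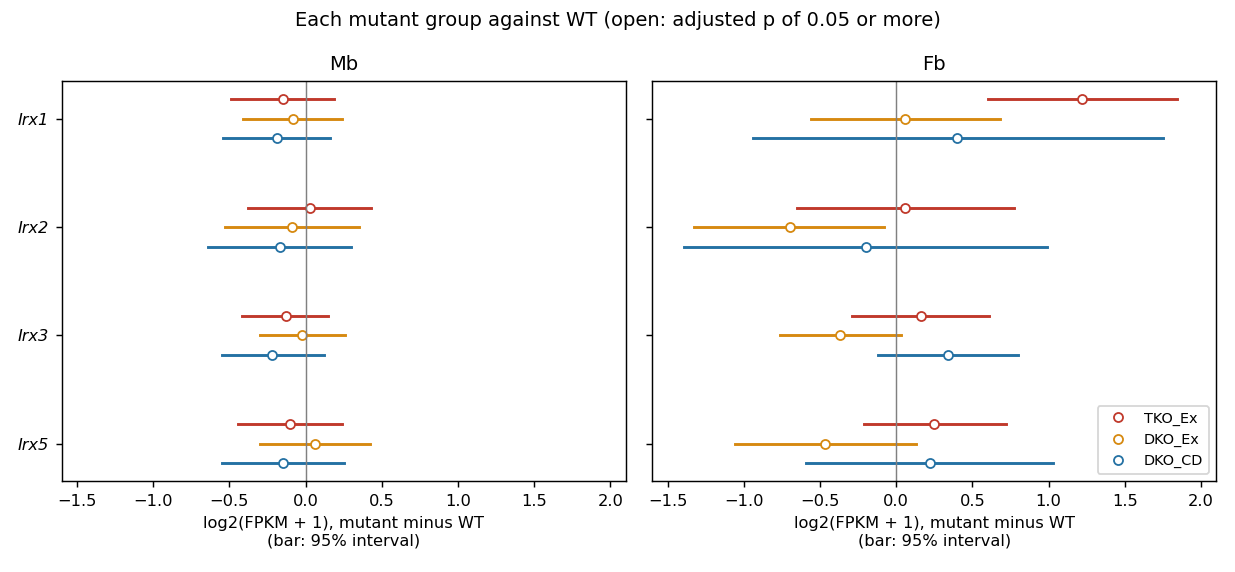
Difference between each mutant group and WT in log2(FPKM + 1) for each member, in the Mb (left) and the Fb (right), with 95% intervals from limma and open points because no adjusted p was under 0.05. The Mb points lie between -0.22 and 0.06, whereas in the Fb they run from -0.70 for Irx2 in DKO_Ex to 1.22 for Irx1 in TKO_Ex.

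The members did not move together in every Fb library. In DKO_Ex replicate 3 Irx1 and Irx3, at 7.24 and 16.4 FPKM, were the highest of the group, and Irx2, at 2.08 FPKM, was the lowest. Some libraries nonetheless held the highest level of all 4 members. In DKO_CD replicate 2 all 4 were the highest of their group, and in TKO_Ex replicate 4 likewise. These are the libraries with forebrain marker sums of 85.3 and 92.6 FPKM, surface ectoderm sums of 191 and 212 FPKM and endothelial sums of 19.8 and 21.6 FPKM. Head mesenchyme sums, led by Twist1, were 65.3 and 89.2 FPKM there, the lowest of the 16 Fb libraries. Midbrain and isthmus genes were mixed in these libraries. En1 was at 0.144 and 0 FPKM, and Pax2, at 0.497 and 1.59 FPKM, had its lowest Fb levels there, whereas Lmx1b, at 6.21 and 6.14 FPKM, and Fgf8, at 34.0 and 38.9 FPKM, had their highest, and Wnt1 was at 3.87 and 3.85 FPKM, with 4.42 FPKM as the highest of the 16. Diencephalic genes were mixed as well. Barhl2, at 8.97 and 14.8 FPKM, and Olig3, at 3.25 and 3.05 FPKM, had their highest Fb levels there, but Pax6 and Lhx5 were lowest in DKO_CD replicate 2, at 44.5 and 16.1 FPKM, and Wnt8b was lowest in TKO_Ex replicate 4, at 11.3 FPKM. The sum of 6 hindbrain markers was 3.69 FPKM in DKO_CD replicate 2, the highest in the Fb, with Hoxa2 the most abundant and Hoxb1 and Hoxb2 at 0, and 1.47 FPKM in TKO_Ex replicate 4. DKO_CD Fb replicate 1, with the lowest Irx1 and Irx2, had a forebrain marker sum of 195 FPKM, close to the highest of 196 FPKM. The part of tissue make-up in the level of the members was not tested.

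**Figure D4:**
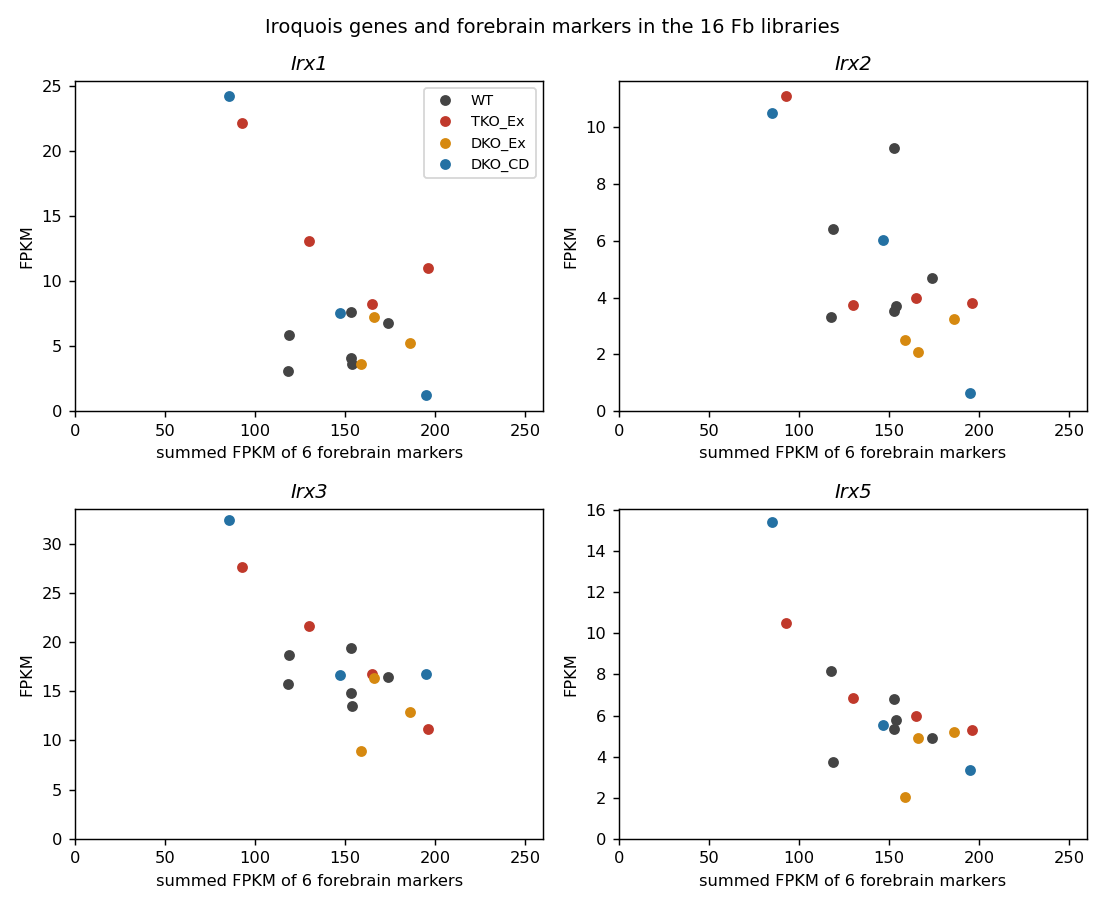
FPKM of each member against the summed FPKM of 6 forebrain markers (Six3, Six6, Rax, Lhx2, Hesx1 and Fezf2) in the 16 Fb libraries, coloured by group. In each panel the 2 points with the lowest marker sums, 92.6 FPKM in TKO_Ex and 85.3 FPKM in DKO_CD, are the 2 highest of the 16 libraries.

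The balance of Irx1 to Irx2 in the Fb was examined after their values were seen, and is given as a description only. In WT the ratio of their FPKM ranged from 0.823 through a median of 0.946 to 1.44. In the TKO_Ex Fb it was 2.88, 2.08, 3.48 and 1.99, in DKO_Ex 1.43, 1.6 and 3.48, and in DKO_CD 1.96, 2.31 and 1.26. All 4 TKO_Ex libraries, 2 of 3 DKO_Ex libraries and 2 of 3 DKO_CD libraries thus lay above the WT range. Some of these ratios rest on few fragments, about 8 of Irx1 and 5 of Irx2 in DKO_CD replicate 1 and about 44 and 16 in DKO_Ex replicate 3. In the Mb the ratio was 1.08 to 1.65 in WT, 1.19 to 1.33 in TKO_Ex, 1.31 to 1.47 in DKO_Ex and 1.09 to 1.67 in DKO_CD, with overlap of all groups. No test is given for this ratio because it was chosen from these values.

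The ratio of Irx3 to Irx5 overlapped between each mutant group and WT in both tissues. It was 2.21 to 3.13 in the WT Mb and 2.21 to 2.52 in the mutant Mb libraries. In the Fb it ranged from 1.93 to 4.99 in WT and from 2.11 to 5.0 in the mutants.

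**Figure D5:**
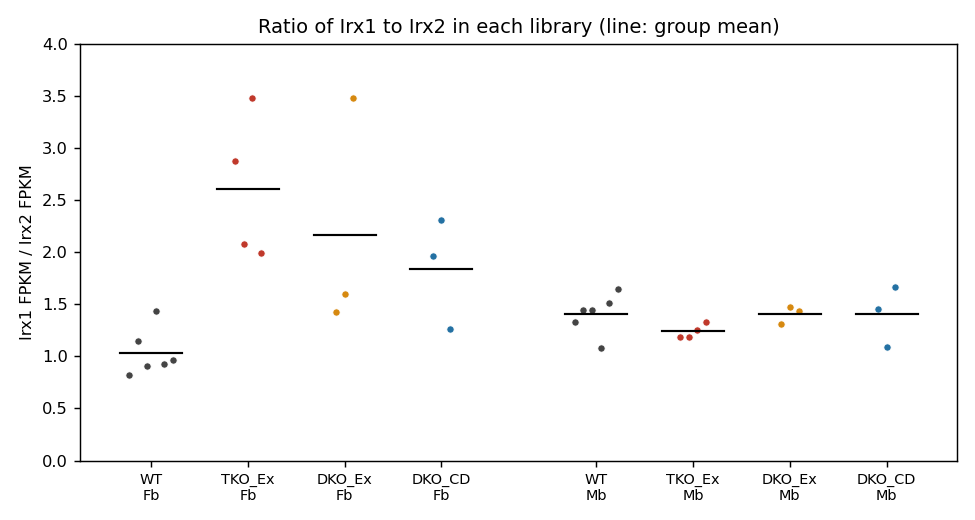
Ratio of Irx1 FPKM to Irx2 FPKM in each library, by group and tissue, with a line at the group mean. The TKO_Ex Fb libraries lie at 1.99 to 3.48, above all WT Fb libraries at 0.823 to 1.44, while the Mb groups overlap.

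The remaining Iroquois genes were much lower. Irx4, best known for the cardiac ventricle, ranged from 0.518 to 4.35 FPKM in the WT Mb and from 0 to 0.606 FPKM in the WT Fb. It was at 1.73 to 3.95 FPKM in the TKO_Ex Mb and 0 to 0.640 FPKM in the TKO_Ex Fb, where it passed with a difference of 1.67 (limma, adjusted p = 0.0134). Irx4 entered that fit only through its Mb level, at a mean of 2.96 FPKM against 0.237 FPKM in the Fb. The filter thus favoured a higher Mb, and this call is no separate support for a step. Without the libraries labelled replicate 3 the difference was 1.51 and did not pass (limma, adjusted p = 0.124). In DKO_Ex Irx4 was at 0.883 to 2.23 FPKM in the Mb and 0.162 to 0.531 FPKM in the Fb. In DKO_CD it was at 0.491 to 7.63 and 0 to 1.29 FPKM. It was tested in both groups, again through its Mb level, and passed in neither (limma). Irx4 was below the level for testing in WT. Irx6 did not exceed 0.477 FPKM in any library.

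The RNA genes beside Irx3 and Irx5 had a step in the same direction in WT. Irx3os overlaps Irx3 on the opposite strand, and the strand setting of the FPKM step is not given. Whether reads of Irx3 were counted for Irx3os was not tested. Irx3os entered the fits of WT and TKO_Ex through its Mb level, its Fb means being 0.761 and 0.475 FPKM. Irx3os, antisense to Irx3, ran from 2.0 through 2.26 to 2.6 FPKM in the WT Mb and from 0.126 through 0.585 to 1.87 FPKM in the WT Fb, a difference of 0.98 in log2(FPKM + 1) (limma, adjusted p = 0.0176). Crnde, a long non-coding RNA transcribed away from the start of Irx5, ran from 9.66 through 13.2 to 15.3 FPKM in the WT Mb and from 2.85 through 4.77 to 7.39 FPKM in the WT Fb, a difference of 1.23 (adjusted p = 0.000576). In TKO_Ex, Irx3os passed with 1.31 (adjusted p = 0.0376), and Crnde had a difference of 1.0 and an adjusted p of 0.267 (limma). Without the libraries labelled replicate 3 the Irx3os difference was 1.39 and did not pass (limma, adjusted p = 0.167), and that of Crnde was 1.52 (limma, adjusted p = 0.0516). Neither passed in DKO_Ex or DKO_CD.

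The other genes around the clusters were read against the 8.26% of all genes called in WT. Within 1 Mb of the outer ends of Irx1 to Irx4 the annotation holds 28 other genes, of which 14 were tested in WT, and Gm20554 alone was called, higher in the Mb by 1.37 (limma, adjusted p = 0.00372). Without WT Mb replicate 5 it was below the level for testing, so that its entry rested on the Mb, the tissue where it was called higher. Within 1 Mb of Irx3 to Irx6 it holds 73, of which 11 were tested, and the 2 called were Crnde and Irx3os. Fto, whose introns are known to hold enhancers that contact Irx3, was tested and was not among them. In the comparisons of mutants with WT no gene of either neighbourhood was called, where 0.0375% to 0.0903% of all genes passed. At that share none would be looked for among the 13 to 14 and 8 to 11 genes tested.

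Among other regional factors, the members were set beside lists of genes with known places in the neural tube. Of 6 anterior factors (Six3, Six6, Hesx1, Fezf1, Fezf2 and Rax), 6 were lower in the Mb in WT, with a median difference of -3.52 against 0.00 over all genes. Six3, which is opposed to Irx3 in the early neural plate, differed by -4.80 in WT (limma, adjusted p = 2.63e-09). In TKO_Ex 6 of the 6 were lower, in DKO_Ex 5 of 6, and in DKO_CD 5 of the 5 tested. Without WT Mb replicate 5 the count in WT was 5, and without the libraries labelled TKO_Ex replicate 3 it was 5 in TKO_Ex, Hesx1 being the one that did not pass in both. In each group the median difference of the anterior list was thus negative and that of the members positive, although no member passed in DKO_CD.

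Of 14 midbrain and isthmus factors, 9 were higher and none lower in the WT Mb, with a median of 1.86. En2, a midbrain and isthmus homeobox gene, differed by 5.20 and En1 by 4.51 (limma, adjusted p = 1.98e-06 and 7.44e-05), whereas Otx2, which covers both Fb and Mb, had a difference of 0.53 (adjusted p = 0.12). In TKO_Ex 10 were higher, in DKO_Ex 8 and in DKO_CD 3. Without WT Mb replicate 5 there were 10 in WT, and without the libraries labelled TKO_Ex replicate 3 there were 7 in TKO_Ex. Of 7 diencephalic factors, 1 was higher and 3 were lower in the WT Mb, with a median of -0.94. The 1 was Gbx2, which the midbrain and isthmus list also holds. The lower ones included Pax6 at -1.50 (adjusted p = 0.0425) and Lhx5 at -2.97 (limma, adjusted p = 1.89e-06). When WT Mb replicate 5, where Barhl2 was at 6.61 FPKM, was left out, 4 were lower, Barhl2 among them, and the median was -1.30. In TKO_Ex 4 were lower, and 2 without the libraries labelled replicate 3.

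Of 8 dorsoventral factors, 5 passed in WT, 4 higher and 1 lower in the Mb. The 4 were Foxa2, Nkx6-1, Pax3 and Pax7, and the 1 was Olig2, a motor neuron progenitor gene known to be repressed by Irx3 in the spinal cord. Nkx6-1 differed by 1.94 (limma, adjusted p = 1.75e-05), while the ventral signal Shh had a difference of -0.08 (adjusted p = 0.884). Of 11 other TALE homeobox genes, the Meis, Pbx, Pknox and Tgif genes, only Pknox2 passed in WT, by 0.58 (adjusted p = 0.0157), and only Tgif2 in TKO_Ex, by -0.99 (adjusted p = 0.0319). Without WT Mb replicate 5 Pknox2 still passed, whereas Pax7 did not, and without the libraries labelled TKO_Ex replicate 3 Tgif2 did not pass, at -1.04 (limma, adjusted p = 0.137). The median of the 11 TALE genes in WT was 0.18, against 2.38 for the 4 Iroquois members.

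Over all 32 libraries and leaving the 4 members themselves aside, the gene whose log2(FPKM + 1) was most alike to each member was Fzd10, a Wnt receptor of the Frizzled family. Its Pearson r was 0.967 with Irx1, 0.961 with Irx2, 0.973 with Irx3 and 0.965 with Irx5, among 13441 genes. These r describe libraries that share the split between Mb and Fb, and many genes with a step between tissues have a high r. After subtraction of each group's mean, r with Fzd10 was 0.889, 0.785, 0.739 and 0.708.

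Fzd10 was at 40.2 through 49.4 to 60.9 FPKM in the WT Mb and 4.13 through 5.32 to 6.95 FPKM in the WT Fb, without overlap. In the mutant Mb it was at 28.7 to 41.7 FPKM in TKO_Ex, 35.4 to 38.8 FPKM in DKO_Ex and 35.2 to 50.6 FPKM in DKO_CD. All DKO_Ex Mb libraries were thus below every WT Mb library, which held for 0.993% of the genes tested and for none of the members. In the TKO_Ex Fb Fzd10 was at 7.15 to 13.6 FPKM, above every WT Fb library, as were Irx1 and 1.42% of the genes tested. In the Fb it was highest in DKO_CD replicate 2 and TKO_Ex replicate 4, at 14.3 and 13.6 FPKM, as the members were. The other genes closest to Irx1 were Pou3f2, a neural POU factor, Wnt1, Mycl and Lmx1b, with r of 0.963, 0.959, 0.953 and 0.946. Those of Irx2 were Mycl, Pou3f2, Celsr1 and Id2, with r of 0.948, 0.943, 0.941 and 0.940.

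For Irx3 they included Mycl, BC024139 and Srgap3, with r of 0.967, 0.963 and 0.961. For Irx5 they were Mycl, Pou3f2, Celsr1 and the protocadherin Pcdh8, with r of 0.959, 0.959, 0.952 and 0.950. Between members, Irx3 and Irx5 had an r of 0.975 and Irx1 and Irx2 of 0.958. After subtraction of group means Irx1 and Irx2 had an r of 0.880 and Irx3 and Irx5 of 0.748, against 0.580 to 0.699 between genes of different clusters. Over the 16 Mb libraries alone, with no subtraction, this order did not hold throughout, since Irx1 had an r of 0.735 with Irx3 and of 0.715 with Irx2.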

How the data were processed

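The 32 directional libraries hold RNA of E9.5 Fb or Mb tissue. Per the labels and the study's methods, the authors mapped their reads with TopHat2 to GRCm38 and derived the deposited FPKM per gene with Cufflinks. Versions are not given in the sources used here. Counts and the authors' DESeq2 step were not used. Values of 65 repeated identifiers were summed, and 48218 of 48576 identifiers were found in the GENCODE mouse annotation.

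Log2(FPKM + 1) was compared by limma 3.58.1 (R 4.3.3, lmFit, eBayes with trend). A gene entered a fit if its mean there reached 1 FPKM, and p-values were adjusted over all genes entered (Benjamini-Hochberg, threshold 0.05). For single genes, exact two-sided permutation tests were run in SciPy 1.17.1, and their p-values are given unadjusted. Embryos were dissected and genotyped per the study's methods, but neither these nor the labels state that each library holds 1 embryo, so p-values measure the spread between these libraries, which may be technical.

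Named genes were the members, their family and neighbours, listed regional factors and markers, and for each member the 5 genes of highest Pearson r. The members and lists were chosen with earlier results of these data known. Alternatives were pseudocounts of 0.1 and 5, no filter or a mean of at least 5 FPKM, median-of-ratios or quantile scaling, no trend, 1 fit over all 8 groups, the replicate block, grouping by record and leaving out each library. Leaving out the libraries that stood apart together was added after seeing the data. Foxc2, of the head mesenchyme markers, was not analysed here, and a few genes that these rules take in are not reported here.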

Additional observations from a re-analysis of the deposited data

Results flagged for a closer look

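Among 48 groups of 4 to 6 libraries, 3 held a library far from the others, where chance gives about 1 in 20. In TKO_Ex Fb replicate 4 the level of Irx2 was 11.1 FPKM, and the next highest of the 4 libraries was at 3.97 FPKM. In the Mb, the library labelled TKO_Ex replicate 3 had 3.10 FPKM of Cdh6, against 0.388 FPKM in the library nearest to it. The ratio of Irx3 to Irx5 was 3.13 in WT Mb replicate 1, and the next was 2.40.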

How the results depend on the processing

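In WT and TKO_Ex all 4 members were called under each alternative, other than leaving out both TKO_Ex replicate 3 libraries, when 3 were called in TKO_Ex. Grouped by record, the DKO_Ex and DKO_CD values exchange places, so that 0 were called in DKO_Ex and 4 in DKO_CD. In DKO_CD 4 were also called with all 8 groups in one fit, and 0 to 2 when single libraries were left out. Why the calls in DKO_CD changed with these last settings was not tested.

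No called difference changed sign. Among uncalled ones, with the replicate block Irx2 in TKO_Ex against WT was -0.07 in the Mb and -0.13 in the Fb, Irx5 of DKO_Ex was -0.01 in the Mb and Irx1 of DKO_Ex -0.12 in the Fb. Grouped by record, Irx5 against WT in the Mb was -0.15 for DKO_Ex and 0.06 for DKO_CD, and Irx3 and Irx5 in the Fb were 0.34 and 0.22 for DKO_Ex and -0.37 and -0.47 for DKO_CD. The interactions of Irx3 and Irx5 were then -0.55 and -0.38 in DKO_Ex and 0.34 and 0.53 in DKO_CD. That of Irx2 in DKO_CD was -0.14 with a pseudocount of 5.

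With single libraries left out, uncalled differences from WT in the Mb ran from -0.10 to 0.12 for Irx2 in TKO_Ex and from -0.08 to 0.03 for Irx3 in DKO_Ex. In the Fb they ran from -0.27 to 0.23 for Irx2 and -0.03 to 0.38 for Irx3 in TKO_Ex, and from -0.15 to 0.27 for Irx1 in DKO_Ex. In the DKO_CD Fb they ran from -0.44 to 1.31 for Irx1, -0.79 to 0.62 for Irx2 and -0.32 to 0.64 for Irx5. Interactions ran from -0.20 to 0.29 for Irx2 in TKO_Ex and -0.36 to 0.06 for Irx1 in DKO_Ex. In DKO_CD they ran from -1.50 to 0.25 for Irx1, -0.79 to 0.62 for Irx2 and -0.79 to 0.16 for Irx5.

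The number of genes called between Mb and Fb was 1102 in WT (717 with a mean of at least 5 FPKM). In TKO_Ex it was 389 (255 with a mean of at least 5 FPKM, 663 in one fit). In DKO_Ex it was 344 (68 grouped by record, 542 in one fit, 163 to 233 with single libraries left out, lowest without Mb replicate 1). In DKO_CD it was 68 (362 in one fit, 26 without Fb replicate 1). Against WT the numbers of 5 to 12 genes ranged from 0 to 38 under other settings and from 0 to 52 with single libraries left out. For the interactions, 0 to 2 genes became 0 to 5.

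The replicate block changed no call among the members. It took the number of genes called from 68 to 40 in DKO_CD, and against WT from 12 to 0, 12 to 1 and 5 to 1 in the TKO_Ex, DKO_Ex and DKO_CD Mb, and from 8 to 0 and 10 to 2 in the TKO_Ex and DKO_Ex Fb. Deviations from group means in libraries of 1 number correlated between tissues by 0.00756 to 0.14 (median 0.0793). Of 16 pairs 4 were over 0.1 and 14 of 16 correlated best with their own number, a hint from the data only. Depth limits the Fb most, where Irx2 rested on as few as 5 fragments.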
